A study of Mus musculus with 16 samples.

Results

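The clustered protocadherins are 3 tandem gene clusters on mouse chromosome 18. They were taken as every gene of the deposited count table whose GRCm38 symbol begins with Pcdha, Pcdhb or Pcdhg followed by a digit, a letter or c. This gave 58 of 51912 genes, 14 in the alpha cluster, 22 in the beta cluster and 22 in the gamma cluster. On build GRCm38, all on the plus strand, the alpha genes lie at chr18:36930184-37187661, the beta genes at chr18:37264938-37524479 and the gamma genes at chr18:37661793-37841873. The 16 libraries are RNA of nuclei sorted from the muscle layer of the colon, which holds the myenteric plexus, of specific-pathogen-free C57BL/6 mice. All mice had received, 5 weeks earlier, the vector AAV9-CaMKII-EGFP-KASH, which puts EGFP on the nuclear envelope of cells where the CaMKII promoter is active. The 4 groups, of 4 libraries each, were neuronal (EGFP-positive) nuclei of mice injected with 3-methylcholanthrene, an agonist of the aryl hydrocarbon receptor (AhR), neuronal nuclei of mice injected with corn oil, non-neuronal (EGFP-negative) nuclei of agonist mice, and non-neuronal nuclei of corn oil mice. Injections were intraperitoneal and preceded isolation by 14 hours. The dose is not given, and nothing says whether the libraries of a group came from separate mice or pools, so p-values measure only the spread between these libraries. Neurons that the vector missed, or in which its promoter was silent, would be sorted with the EGFP-negative nuclei.

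Clustered protocadherins are cadherin-like adhesion proteins that bind copies of themselves on neighbouring membranes, and neurons use their combinations to tell their own branches from those of other cells. Each gene is named for 1 variable exon with its own promoter. In the alpha and gamma clusters that exon is spliced to constant exons shared by the whole cluster, which encode a common cytoplasmic tail, while beta genes have no constant exons. In mouse brain a single neuron switches on a small, largely random choice of the alternate isoforms, through promoters bound by CTCF and held by cohesin, whereas the C-type genes at the end of the alpha and gamma clusters are used more uniformly. Most alternate isoforms have no separate known function.

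This structure limits what a count for 1 gene means. All 14 alpha and all 22 gamma genes shared exonic bases with another gene in the annotation (median 53.6% of an alpha gene and 44.7% of a gamma gene). The beta genes were single-exon genes, 22 of 22, and no more than 9.67% of one was shared with a gene on the same strand. On the other strand Gm37446 overlaps Pcdhb12 by 1927 bp. RSEM divided reads of shared exons between genes. Of the nonzero alpha values 8.39%, and of the gamma values 12.9%, were whole numbers within 0.005, against 67.1% of the beta values and 80.3% of those of all other genes. The summed count of a cluster keeps those reads together and is given first. Counts of single alpha and gamma genes are uncertain in this respect. Beta values were also less often whole than those of other genes, so single beta counts are not free of divided reads. The readthrough genes Gm42416, Gm37013 and Gm37388 run from an alpha variable exon into the gamma constant exons and can also take reads. Pcdha4 shared 91.4% of its exonic bases, since its overlap with Gm42416 adds to the constant exons that every alpha gene shares. The symbol Pcdha11 stands on 2 identifiers, which are kept apart here. Pcdhb1 and Pcdhga10 had no count in any of the 16 libraries.

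Libraries held between 2663738 and 4902303 counts. The sort was checked with markers. All 15 pan-neuronal genes were higher in neuronal than non-neuronal nuclei under corn oil, and 11 of 15 under agonist, while all 9 smooth muscle genes were lower under each treatment. The pan-neuronal sum was 4400 to 5089 CPM in neuronal agonist libraries, 4272 to 5054 in neuronal corn oil libraries, 71.4 to 378.7 in non-neuronal agonist libraries and 160.7 to 566.1 in non-neuronal corn oil libraries. The enteric glial sum of 8 genes was 3.83 to 32.6, 9.12 to 30.5, 88.4 to 166 and 80.5 to 113 CPM in the same 4 groups. Epithelial markers, foreign to the muscle layer, reached 10870 CPM in a non-neuronal corn oil library. Mitochondrially encoded genes took 1.77% to 6.11% of counts in neuronal and 10.3% to 42.8% in non-neuronal libraries. The part of these differences in the results below was not tested, except where a value without the affected libraries is given.

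The 3 clusters differed in how they separated the populations. By library size, summed alpha transcripts were 10.5 (agonist) and 17.7 (corn oil) times higher in neuronal nuclei. Summed beta transcripts were 2.22 (agonist) and 2.84 (corn oil) times higher there, and gamma transcripts were at overlapping levels. Alpha counts summed to 545, 417, 519 and 485 CPM (counts scaled to a common library total) in neuronal agonist libraries 1 to 4 and to 466, 525, 444 and 473 CPM in neuronal corn oil libraries. The sums were 10.6, 4.50, 77.2 and 95.6 CPM for non-neuronal agonist libraries, then 46.7, 32.3, 3.40 and 25.6 CPM in non-neuronal corn oil libraries. No non-neuronal library came near a neuronal one. Under corn oil the neuronal mean was 476.8 ± 34.3 CPM, against a non-neuronal mean of 27.0 ± 18.02 CPM (SD, n = 4 each), a ratio of 17.7. Under agonist the neuronal mean was 491.6 ± 55.6 CPM, against a non-neuronal mean of 47.0 ± 46.2 CPM (SD, n = 4 each), a ratio of 10.5. The log2 ratio under agonist, 3.39, was 2.51 without the 2 non-neuronal libraries over 30% mitochondrial and 4.00 without non-neuronal agonist library 4. In bulk nuclei, fewer cells of a type and less RNA per cell cannot be told apart.

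Beta sums were 407.5, 427, 482 and 505 CPM in neuronal agonist libraries, and 85.7, 147, 218 and 371 CPM in non-neuronal agonist libraries. Under corn oil they were 493, 429.6, 329 and 471 CPM in neuronal libraries, and 173, 173, 67.1 and 192 CPM in non-neuronal libraries. The populations did not overlap under either treatment, with ratios of 2.22 under agonist and 2.84 under corn oil. Gamma sums were 1119, 929, 654.5 and 765 CPM in neuronal agonist libraries against 238, 423, 927 and 609.5 CPM in non-neuronal ones. Under corn oil they were 657, 759, 726 and 699.9 CPM in neuronal libraries against 574, 379, 310.5 and 858 CPM in non-neuronal ones. Non-neuronal gamma sums spread on both sides of the neuronal ones under corn oil, so the ratios of 1.58 (agonist) and 1.34 (corn oil) lay within the spread of the libraries. Scaling by TMM, which sets most genes equal, in place of library size gave gamma log2 ratios of 0.16 (agonist) and 0.10 (corn oil) in place of 0.66 and 0.42, and beta log2 ratios of 0.66 and 1.19 in place of 1.15 and 1.51. Alpha log2 ratios by TMM were 3.05 (agonist) and 3.89 (corn oil) in place of 3.39 and 4.14. Without the 2 non-neuronal libraries over 30% mitochondrial the beta log2 ratio under agonist was 0.63.

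**Figure D1:**
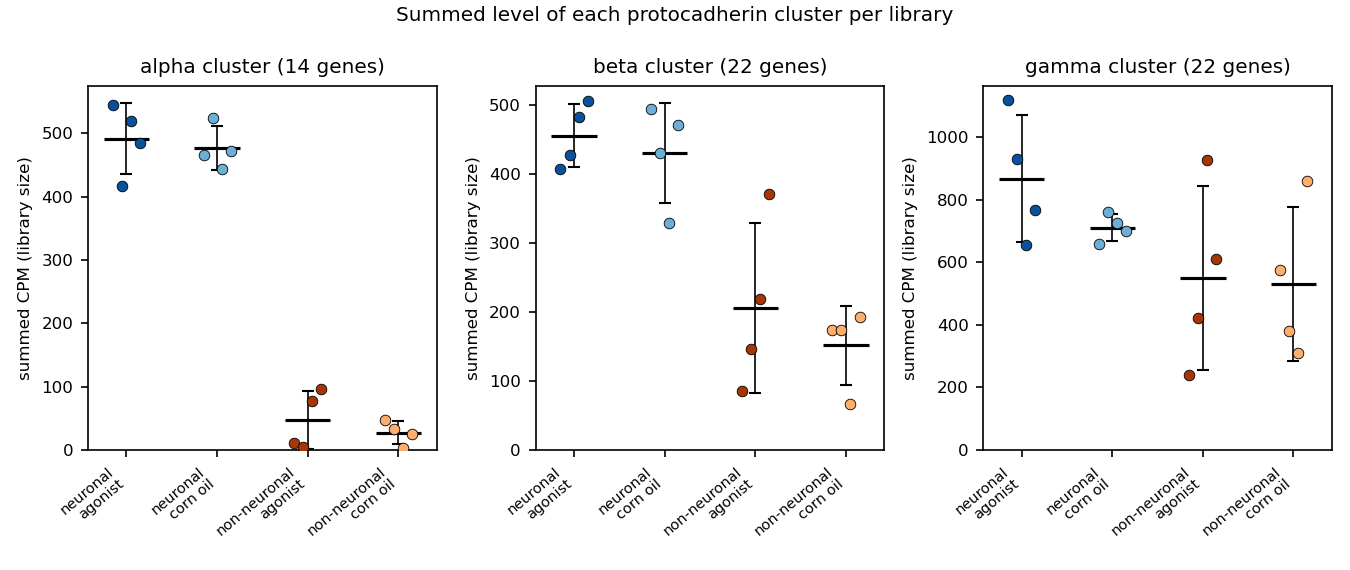
Summed level (CPM, scaled by library size) of the alpha, beta and gamma genes, 1 point per library, with the mean and SD of each group (n = 4). Alpha sums are at least 416.9 CPM in the 8 neuronal libraries and at most 95.6 CPM in the 8 non-neuronal ones, beta sums do not overlap between populations within a treatment, and gamma sums overlap.

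The share of each cluster within a library does not depend on library scaling. By this measure alpha was again higher in neuronal nuclei. Beta shares overlapped between populations, unlike beta sums, and gamma shares were lower in neuronal nuclei without overlap, unlike gamma sums. Alpha genes held 23.5% to 31.4% of all clustered protocadherin counts in neuronal agonist libraries and 28.8% to 30.6% in neuronal corn oil libraries. They held 0.783% to 8.88% in non-neuronal agonist libraries and 0.892% to 5.88% in non-neuronal corn oil libraries. The mean share of the beta genes was 25.4% and 26.6% in neuronal nuclei (agonist, corn oil) and 25.9% and 21.7% in non-neuronal nuclei. Gamma genes took the rest, on average 47.4% and 44.0% in neuronal and 69.3% and 74.6% in non-neuronal nuclei. The non-neuronal alpha level was 9.55% of the neuronal one under agonist and 5.66% under corn oil, beside 4.69% and 6.71% for the pan-neuronal sum, 45.1% and 35.2% for beta and 63.4% and 74.7% for gamma. These are ratios of group means, and in single non-neuronal libraries the alpha and pan-neuronal sums did not keep a fixed proportion. They were 95.6 and 233.7 CPM in agonist library 4, and 3.40 and 160.7 CPM in corn oil library 3. Whether the low alpha level of non-neuronal nuclei came from neuronal RNA was not tested.

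In a test of each gene over all genes of the table, 11 clustered protocadherins were higher in neuronal than non-neuronal nuclei under corn oil and none was lower. The test was edgeR's quasi-likelihood F-test, two-sided, and a gene was called where its p, adjusted by the Benjamini-Hochberg method over the 15285 genes tested, was under 0.05. Of those genes 11.8% were called higher and 13.5% lower. The called members were 9 of 14 alpha, 2 of 22 beta and 0 of 22 gamma genes, of which 13, 16 and 21 had counts enough to be tested. The median log2 fold change was 4.33 for the tested alpha genes, 1.49 for beta, 0.21 for gamma and -0.11 over all genes tested. Libraries of the populations did not overlap, with neuronal higher, for 12 alpha, 6 beta and 1 gamma genes among those tested (20.1% of all genes tested) and for the untested Pcdha1, Pcdhb3, Pcdhb8 and Pcdhb12, and 0 members lay wholly lower in neuronal libraries (11.8%). For the gamma genes, 1 had an unadjusted p under 0.05 against 35.8% of all genes tested, and DESeq2 also called none. With library-size scaling 1 gamma gene was called, and without non-neuronal corn oil library 3 also 1.

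Among agonist libraries 8 members were higher in neuronal nuclei and none lower, with 6.67% of 14065 genes tested called higher and 6.97% lower. They were 6 of 14 alpha, 1 of 22 beta and 1 of 22 gamma genes, with 12, 15 and 21 tested. The medians were 4.23 for alpha, 0.84 for beta, 0.09 for gamma and -0.15 over all genes tested. Among tested members, populations did not overlap for 9 alpha, 3 beta and 1 gamma genes (16.7% of all genes tested, neuronal higher), nor did they for the untested Pcdhac1, Pcdhb7 and Pcdhb12, and for 0 members with neuronal lower (6.49%). The scaling mattered for the whole table here: with library size in place of TMM, the median over all genes moved to 0.45 under agonist (0.14 under corn oil). The split of calls over all genes under agonist moved with it, to 1358 higher and 637 lower, from 938 higher and 980 lower. The members called then were 7 alpha, 1 beta and 1 gamma, all higher.

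**Figure D2:**
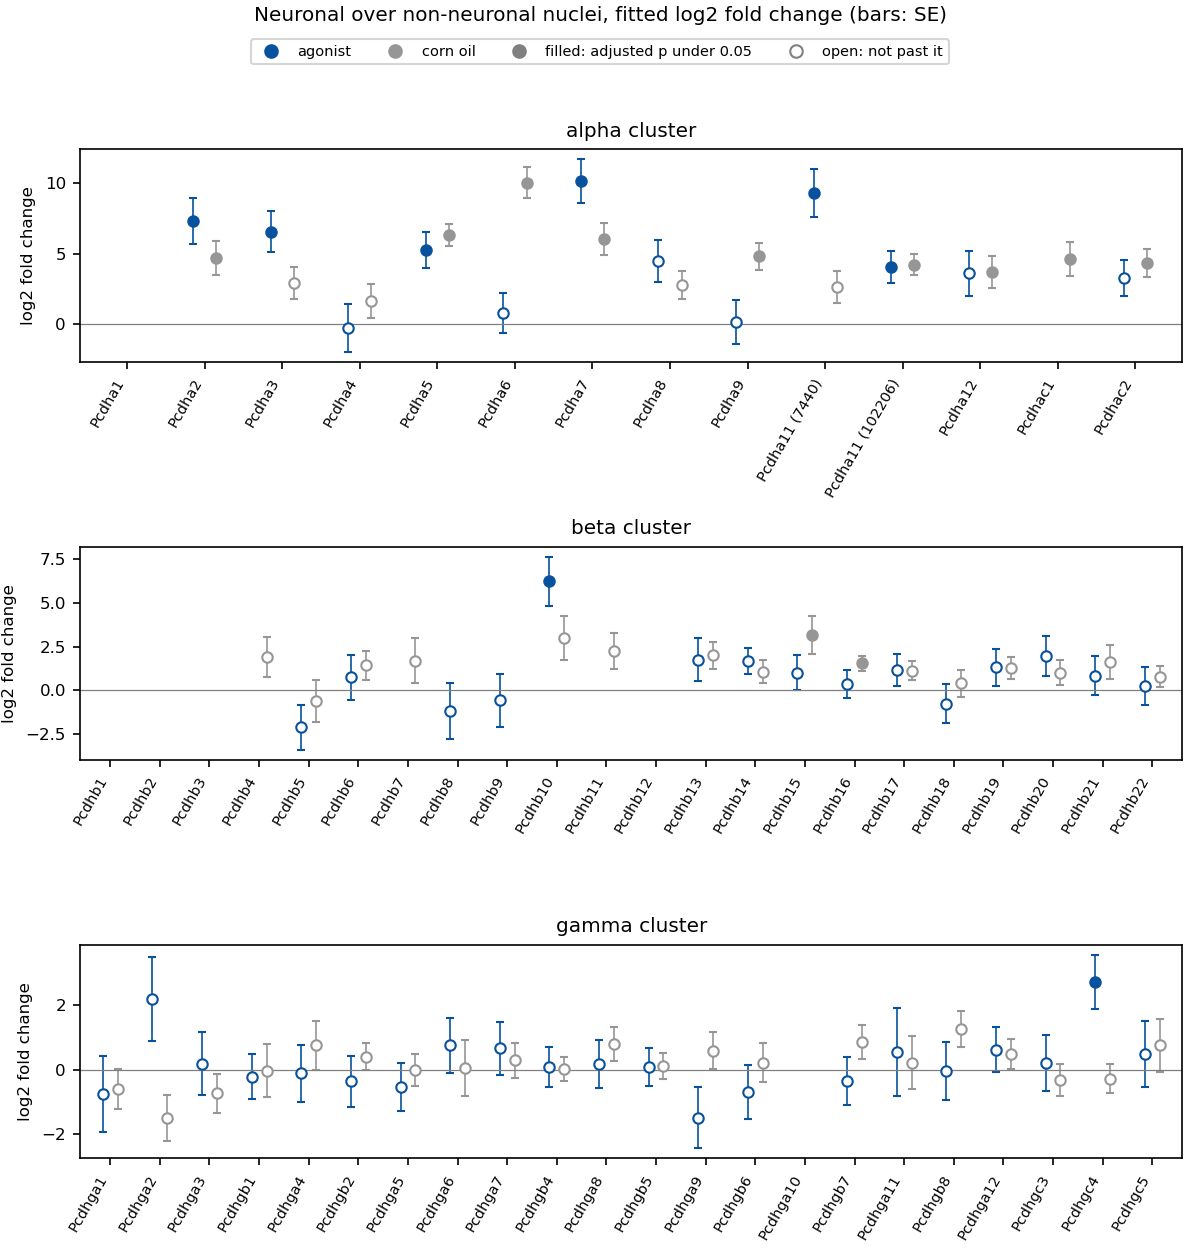
Fitted log2 fold change of neuronal over non-neuronal nuclei for each tested member in chromosome order, with its SE (blue, agonist; grey, corn oil; filled, adjusted p under 0.05). Members with no point had too few counts; values against a group without counts are fitted values and no bounds. Most alpha genes lie well above 0, gamma genes scatter around it.

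Several alternate alpha isoforms were called under each treatment. Pcdha5 had 73.5, 51.4, 94.5 and 91.8 CPM in neuronal agonist libraries against 0, 3.93, 0 and 0.951 CPM in non-neuronal agonist libraries. Under corn oil it had 62.7, 63.5, 70.7 and 76.6 CPM in neuronal libraries against 0.953, 0, 0 and 1.81 CPM in non-neuronal ones. Every neuronal library was far above every non-neuronal one, with log2 fold changes of 5.25 ± 1.27 (SE; adjusted p = 0.0122) and 6.30 ± 0.79 (adjusted p = 9.51e-05). Pcdha11 (ENSMUSG00000102206) had 215, 55.8, 113 and 88.7 CPM in neuronal agonist libraries against 0.204, 0, 16.5 and 6.66 CPM in non-neuronal ones. Its corn oil values were 81.8, 75.4, 80.4 and 75.3 CPM in neuronal and 2.22, 5.63, 0 and 6.71 CPM in non-neuronal libraries. The groups did not overlap in either case. The log2 fold change was 4.02 ± 1.14 under agonist (adjusted p = 0.0282) and 4.21 ± 0.75 under corn oil (adjusted p = 0.0011). The agonist call was lost without neuronal agonist library 1 (adjusted p = 0.0909) or non-neuronal agonist library 4 (adjusted p = 0.0642).

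Pcdha7 was almost without counts outside neuronal nuclei. It had 76.0, 37.0, 18.2 and 37.8 CPM in neuronal agonist libraries and 0 in all 4 non-neuronal agonist libraries, at least 261-fold higher against a floor of 3 counts over the group (adjusted p = 0.0015). Corn oil libraries held 11.7, 24.9, 22.7 and 18.8 CPM in neuronal and 0.953, 0, 0 and 0 CPM in non-neuronal nuclei, a ratio of 93.1 with a 95% counting interval of 31.5 to 454 (adjusted p = 0.0014). Pcdha2 had 45.3, 6.95, 17.6 and 8.66 CPM in neuronal agonist libraries against 0.204, 0, 0 and 0 CPM in non-neuronal ones. This was 309 against 1 count, a ratio of 373.5 with an interval of 66.5 to 14800 (adjusted p = 0.0077). Its corn oil values were 14.4, 28.6, 14.5 and 16.6 CPM in neuronal and 0, 0, 1.81 and 0 CPM in non-neuronal libraries (log2 fold change 4.69 ± 1.20, adjusted p = 0.0108). Neither gene overlapped between populations. Intervals and floors cover counting error only.

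Other isoforms passed the threshold under 1 treatment and not the other. Pcdha6 had 20.1, 81.8, 33.5 and 38.3 CPM in neuronal corn oil libraries and 0 in all 4 non-neuronal ones, at least 206-fold higher (adjusted p = 0.000134). Under agonist it had 5.64, 43.2, 20.1 and 15.9 CPM in neuronal libraries against 0, 0, 4.86 and 36.9 CPM in non-neuronal ones. Those groups overlapped through non-neuronal library 4, and the log2 fold change was 0.77 ± 1.42 (adjusted p = 0.798). Pcdha9 had 40.2, 48.3, 36.4 and 30.8 CPM in neuronal corn oil libraries against 3.18, 1.88, 0 and 0 CPM in non-neuronal ones (log2 fold change 4.80 ± 0.97, adjusted p = 0.0025). Its agonist values were 0.451, 28.3, 10.99 and 40.9 CPM in neuronal and 2.65, 0, 46.9 and 0 CPM in non-neuronal libraries (0.14 ± 1.57, adjusted p = 0.972). Pcdha12 was called under corn oil too, at 30.9 ± 9.35 CPM in neuronal libraries against 2.08 ± 3.87 CPM in non-neuronal ones (SD, n = 4 each; 3.69 ± 1.16, adjusted p = 0.0315). Under agonist it averaged 18 ± 7.98 CPM in neuronal libraries against 0.714 ± 1.43 CPM in non-neuronal ones, without overlap, and was not called (3.58 ± 1.60, adjusted p = 0.169). For Pcdha9 the highest value of the 8 agonist libraries was non-neuronal library 3 and neuronal library 1 was nearly without counts. In 1 fit of all 4 groups Pcdha9 was not called under corn oil (adjusted p = 0.0521).

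Pcdha3 and the other Pcdha11 entry showed the converse. Pcdha3 had 29.5, 17.5, 21.04 and 14.5 CPM in neuronal agonist libraries against 0, 0.281, 0.211 and 0 CPM in non-neuronal ones, a ratio of 186 with an interval of 51.1 to 1544 (adjusted p = 0.0070). Under corn oil it had 23.1, 27.4, 18.7 and 19.8 CPM in neuronal libraries against 8.89, 1.88, 0 and 0 CPM in non-neuronal ones. The groups still did not overlap, but the adjusted p was 0.0767 (log2 fold change 2.92 ± 1.13) and 0.00822 without non-neuronal corn oil library 1. Pcdha11 (ENSMUSG00000007440), at whose start RefSeq places Pcdha10, had 7.67, 25.98, 40.5 and 30.1 CPM in neuronal agonist libraries and 0 in all 4 non-neuronal ones, at least 141-fold higher (adjusted p = 0.0038). Its corn oil values were 37.6, 22.2, 13.6 and 28.6 CPM in neuronal and 12.1, 3.00, 0 and 0 CPM in non-neuronal libraries, without overlap (log2 fold change 2.62 ± 1.14, adjusted p = 0.114). Without non-neuronal corn oil library 1 the adjusted p was 0.0168. Whether these genes differed between treatments in their separation was tested by the interaction given further on, which called none.

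**Figure D3:**
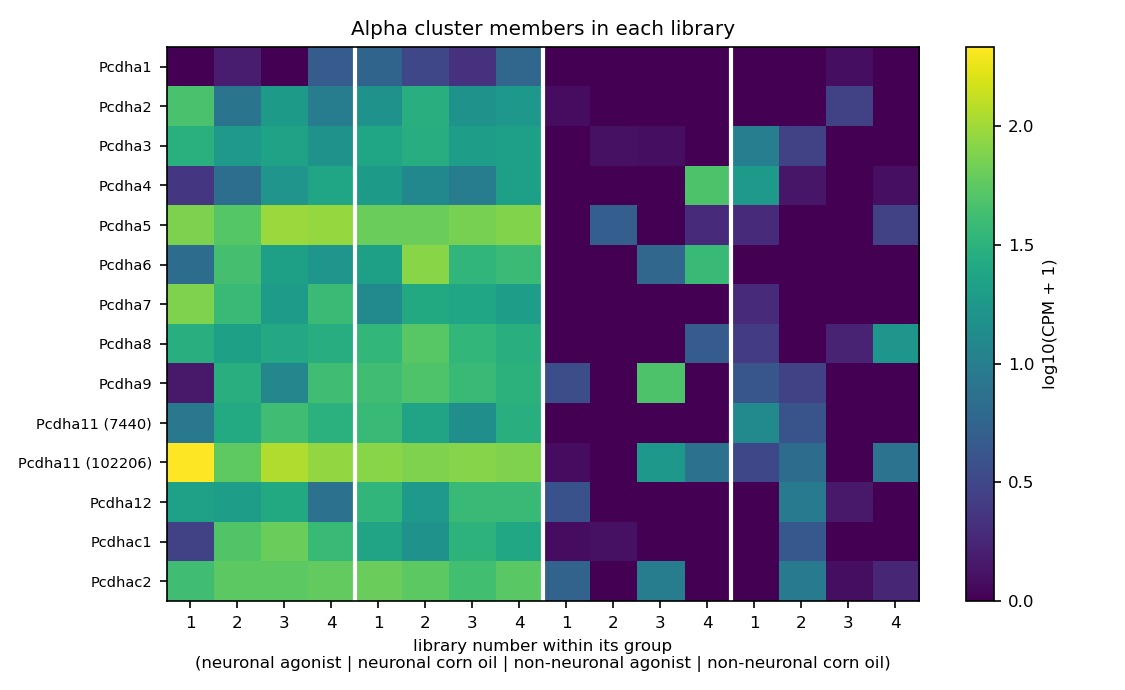
Level of each alpha gene (rows, in chromosome order; log10 of CPM + 1) in each of the 16 libraries (columns, by group). Neuronal columns are filled in nearly every row, non-neuronal columns show a few isolated genes that differ from library to library, and the 2 Pcdha11 rows carry the last digits of their identifiers.

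The alpha C-type genes, which end that cluster, were higher in neuronal libraries as well. Of the gamma C-type genes, Pcdhgc3 and Pcdhgc5 overlapped between populations under both treatments, and Pcdhgc4 under corn oil. Pcdhac2, a C-type isoform known from serotonergic neurons of the mouse brain, had 40.4, 55.3, 55.3 and 58.9 CPM in neuronal agonist libraries against 4.49, 0, 8.67 and 0 CPM in non-neuronal ones (log2 fold change 3.27 ± 1.28, adjusted p = 0.111, but 0.044 with library-size scaling). Under corn oil it had 62.0, 54.4, 41.8 and 53.9 CPM in neuronal libraries against 0, 8.26, 0.227 and 0.774 CPM in non-neuronal ones (4.33 ± 0.99, adjusted p = 0.0054). Groups did not overlap under either treatment. Pcdhac1 had 22.1, 14.9, 31.0 and 24.4 CPM in neuronal corn oil libraries against 0, 3.38, 0 and 0 CPM in non-neuronal ones (4.62 ± 1.23, adjusted p = 0.0133). With agonist its neuronal libraries held 1.80, 49.1, 62.5 and 36.7 CPM and its non-neuronal libraries 0.204, 0.281, 0 and 0 CPM. That gene did not pass the count filter under agonist, and its ratio of 504 to 2 counts was 305 (84 to 2522). Neuronal agonist library 1 was the low one.

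Pcdhgc3, whose cytoplasmic part binds Axin1 in the mouse, had 19.2, 52.7, 37.1 and 32.6 CPM in neuronal agonist libraries against 2.86, 12.4, 9.94 and 69.4 CPM in non-neuronal ones. Its corn oil values were 36.9, 24.0, 19.0 and 32.8 CPM in neuronal and 27.0, 15.4, 15.2 and 60.4 CPM in non-neuronal libraries. Non-neuronal library 4 was the highest of its comparison in both cases, and the log2 fold changes were 0.20 ± 0.87 and -0.32 ± 0.51 (adjusted p = 0.929 and 0.703). Pcdhgc5 had 70.1, 31.9, 24.2 and 25.6 CPM in neuronal agonist libraries against 2.86, 0.843, 64.7 and 17.8 CPM in non-neuronal ones, and 10.7, 25.8, 32.4 and 25 CPM in neuronal corn oil libraries against 6.03, 13.1, 0.453 and 28.9 CPM in non-neuronal ones. These also overlapped, with log2 fold changes of 0.49 ± 1.03 and 0.76 ± 0.83 (adjusted p = 0.828 and 0.564).

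Pcdhgc4, the gamma isoform that mouse spinal interneurons need for survival, was the only gamma gene called in either comparison between populations. In agonist mice it had 151, 32.4, 35.8 and 39.1 CPM in neuronal libraries against 3.47, 4.50, 10.8 and 10.5 CPM in non-neuronal ones, without overlap. The log2 fold change was 2.73 ± 0.84 (adjusted p = 0.0429). Its corn oil values were 18.1, 22.5, 36.6 and 24.7 CPM in neuronal and 18.7, 36.0, 21.1 and 26.6 CPM in non-neuronal libraries, which interleaved (-0.27 ± 0.46, adjusted p = 0.718). The call stood in 5 of the 15 alternatives that gave it an adjusted p. DESeq2 was not among these 15, and it called 0 gamma genes in this comparison. The edgeR call was lost on leaving out any 1 of the 8 libraries, most of all without neuronal agonist library 1 (1.69, adjusted p = 0.257). It was also lost without the libraries over 30% mitochondrial (adjusted p = 0.138).

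Of the beta genes, Pcdhb16, Pcdhb15 and Pcdhb10 were called under 1 treatment each. Pcdhb16, the highest beta gene per kilobase in neuronal corn oil nuclei, had 75.1, 81.8, 73.8 and 76.6 CPM in neuronal corn oil libraries against 25.7, 22.5, 27.4 and 9.55 CPM in non-neuronal ones (log2 fold change 1.55 ± 0.41, adjusted p = 0.0131). Its agonist values were 40.6, 66.9, 69.1 and 89.0 CPM in neuronal and 1.63, 20.0, 92.0 and 33.3 CPM in non-neuronal libraries, overlapping through non-neuronal library 3 (0.36 ± 0.81, adjusted p = 0.84). In 1 fit of all 4 groups its corn oil call was lost (adjusted p = 0.159). Pcdhb10 had 15.1, 14.9, 15.4 and 13.5 CPM in neuronal agonist libraries against 0, 0, 0.211 and 0.238 CPM in non-neuronal ones, a ratio of 129 with an interval of 35.2 to 1070 (adjusted p = 0.0084). Under corn oil it had 18.8, 5.78, 9.66 and 10.1 CPM in neuronal libraries against 0.318, 4.50, 0 and 0 CPM in non-neuronal ones, without overlap (3.00 ± 1.25, adjusted p = 0.0996, and 0.00396 without non-neuronal corn oil library 2).

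Pcdhb15 was called under corn oil by a narrow margin. It had 17.4, 32.2, 12.8 and 31.5 CPM in neuronal corn oil libraries against 8.57, 0.751, 0 and 0.258 CPM in non-neuronal ones (log2 fold change 3.16 ± 1.09, adjusted p = 0.0492). With agonist it had 54.1, 43.2, 19.5 and 3.12 CPM in neuronal libraries against 7.75, 2.81, 19.4 and 13.3 CPM in non-neuronal ones, with overlap (1.02 ± 0.99, adjusted p = 0.586). The corn oil call was lost in 10 of 15 alternatives, among them without any single neuronal library or without non-neuronal library 2, 3 or 4. Pcdhb17 had 2.71, 38.1, 68.8 and 62.7 CPM in neuronal agonist libraries against 4.49, 11.52, 14.8 and 18.1 CPM in non-neuronal ones, and 85.2, 71.5, 27.8 and 48.4 CPM in neuronal corn oil libraries against 36.5, 10.1, 6.57 and 38.7 CPM in non-neuronal ones. It overlapped in both and was not called (1.18 ± 0.91 and 1.13 ± 0.55, adjusted p = 0.472 and 0.162). The number of beta genes called under corn oil ranged from 1 to 5 when 1 library was left out, 5 of them without non-neuronal library 2.

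The gamma genes with the highest levels per kilobase were abundant in both populations. Pcdhga5 had 131, 61.2, 49.9 and 24.2 CPM in neuronal agonist libraries against 51.2, 20.5, 174 and 26.6 CPM in non-neuronal ones, and 49.6, 89.1, 68.2 and 56.2 CPM in neuronal corn oil libraries against 30.2, 52.6, 18.1 and 125 CPM in non-neuronal ones. Pcdhgb4 had 49.2, 73.3, 60.3 and 124 CPM in neuronal agonist libraries against 9.18, 55.4, 67.9 and 59.7 CPM in non-neuronal ones, and 56.3, 88.8, 93.2 and 53.2 CPM in neuronal corn oil libraries against 45.7, 64.6, 37.2 and 94.2 CPM in non-neuronal ones. Pcdhga12 had 31.8, 81.5, 59.7 and 62.0 CPM in neuronal agonist libraries against 15.1, 37.7, 21.6 and 15.5 CPM in non-neuronal ones, and 84.2, 74.8, 63.9 and 76.3 CPM in neuronal corn oil libraries against 64.8, 16.5, 19.5 and 82.4 CPM in non-neuronal ones. All 3 overlapped under both treatments. Their log2 fold changes under corn oil were -0.01 ± 0.50, 0.02 ± 0.36 and 0.49 ± 0.45 in the order named, and under agonist -0.53 ± 0.75, 0.09 ± 0.62 and 0.62 ± 0.69, none called.

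Per kilobase of merged exon, the neuronal corn oil levels of the 3 clusters reached similar heights. In the alpha cluster Pcdha5 stood at 13.1 ± 1.26 CPM per kb, Pcdha11 (ENSMUSG00000102206) at 10.4 ± 0.45 and Pcdhac2 at 9.01 ± 1.42 (SD, n = 4). By this length Pcdha5 exceeded the next by more than either SD, but with the longest transcript as length the order turned, to 14.6 CPM per kb for that Pcdha11 entry and 13.1 for Pcdha5. Pcdhac2 and Pcdha6 (8.09 ± 4.98) did not differ beyond their spread. In the beta cluster Pcdhb16 stood at 14.7 ± 0.67, Pcdhb17 at 12.5 ± 5.43 and Pcdhb15 at 8.38 ± 3.52 CPM per kb, with neighbours within their spread. Pcdhga5, Pcdhgb4 and Pcdhga12 followed each other at 14.1 ± 3.72, 12.5 ± 3.61 and 11.2 ± 1.25 CPM per kb, also within their spread, and by the longest transcript Pcdhga5 came after the other two. In the beta cluster the level per kb followed the order of the genes on the chromosome, with a Spearman rho of 0.73 over 22 genes in neuronal corn oil nuclei, 0.70 in neuronal agonist nuclei, and 0.52 and 0.65 in non-neuronal agonist and corn oil nuclei. The rho in neuronal corn oil nuclei was 0.54 over 14 alpha and 0.12 over 22 gamma genes. In neuronal corn oil nuclei beta levels were highest at Pcdhb16 and Pcdhb17 and lower again after them. These are descriptions over genes that share libraries.

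**Figure D4:**
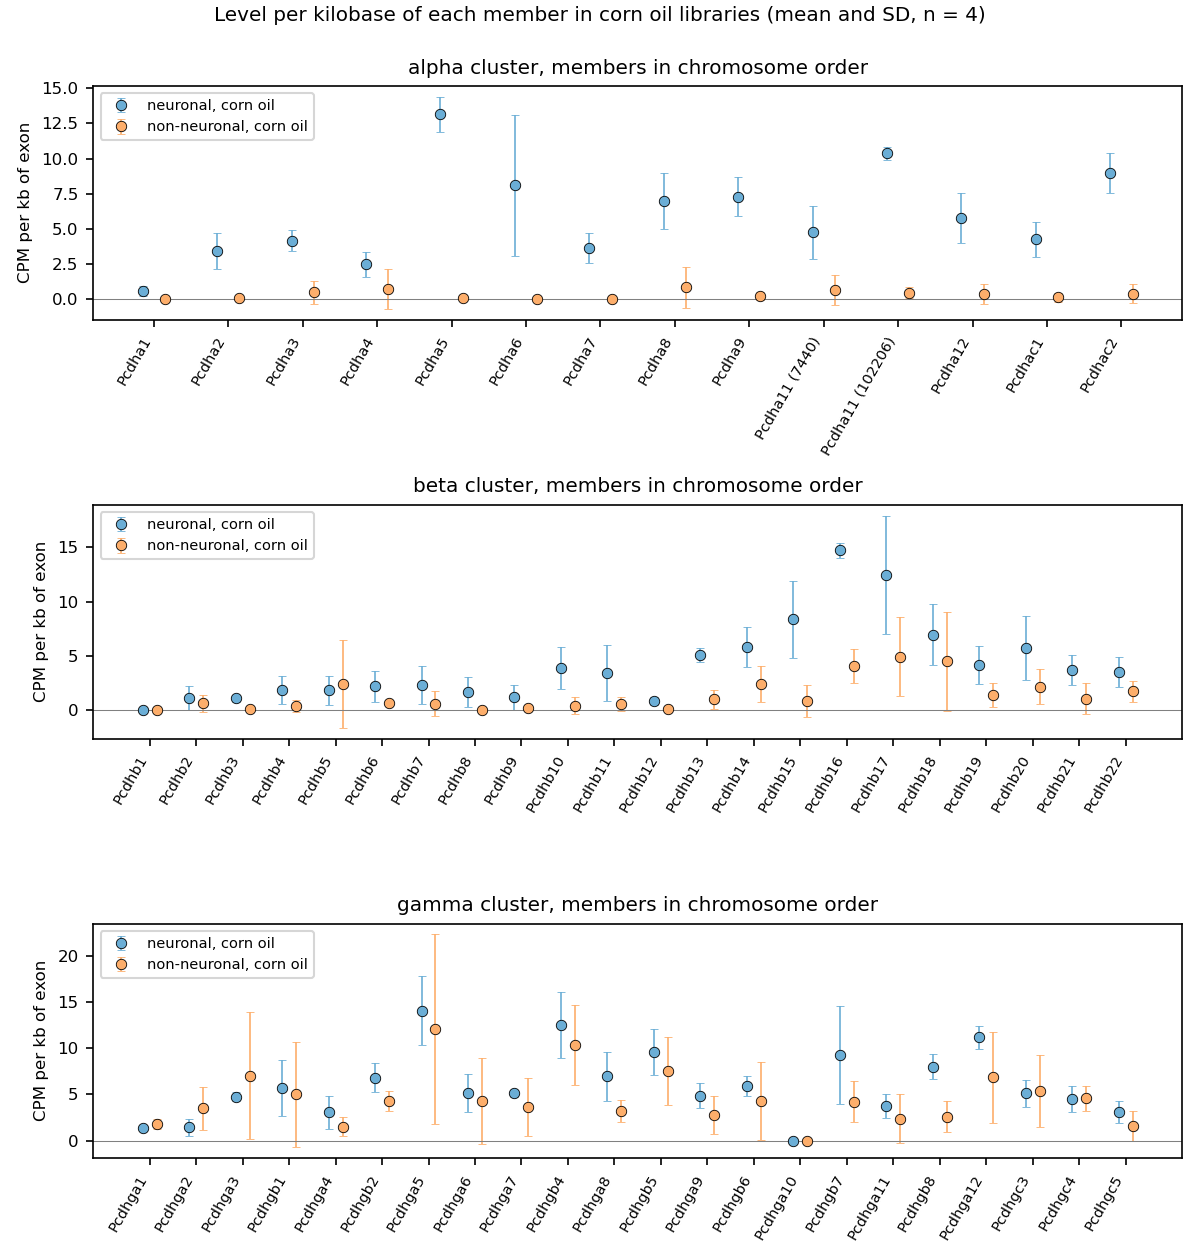
Mean level of each member in CPM per kilobase of merged exon, with SD over 4 corn oil libraries (blue, neuronal; orange, non-neuronal), in chromosome order from left to right. Levels of beta genes are higher in the right-hand part of the cluster, and non-neuronal levels are close to 0 throughout the alpha cluster but not in the gamma cluster.

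Libraries of a group also differed in which members they held. The alpha profile (log2 of CPM + 1 over 14 genes) correlated between pairs of neuronal corn oil libraries with a median Pearson r of 0.86, and between pairs of non-neuronal corn oil libraries with a median of -0.01. The beta medians were 0.82 and 0.55 and the gamma medians 0.87 and 0.56 in the same groups. Non-neuronal corn oil libraries held counts for only 5 to 8 of the 14 alpha genes, with alpha sums of 3.40 to 46.7 CPM. Their low alpha correlation is therefore over values near 0, and counting error was not separated from differences between libraries. Pairs of neuronal agonist libraries had medians of 0.70, 0.64 and 0.68 for alpha, beta and gamma. Of members with at least 10 counts in a group, the number that drew over 50% of their summed CPM from 1 library was 0 of 14 alpha, 6 of 21 beta and 0 of 21 gamma genes in neuronal corn oil nuclei. In non-neuronal corn oil nuclei it was 8 of 9, 11 of 18 and 10 of 21, and in non-neuronal agonist nuclei 8 of 8, 10 of 15 and 11 of 21. Neuronal agonist nuclei had 5 of 14, 11 of 21 and 2 of 21. The same held for 23.5% of all other genes in neuronal corn oil, 45.7% in neuronal agonist, 68.5% in non-neuronal agonist and 54.7% in non-neuronal corn oil nuclei.

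The opposite-strand genes Gm10545 and Gm10544 in the alpha cluster were higher in neuronal nuclei as well, under corn oil. Gm10545, opposite exons of Pcdha11 (ENSMUSG00000102206) and Pcdha12, averaged 33.5 ± 10.6 CPM in neuronal corn oil nuclei, against 0.494 ± 0.413 CPM in non-neuronal ones (SD, n = 4 each; log2 fold change 5.65 ± 0.84, adjusted p = 0.000308). Gm10544, opposite exons of that Pcdha11 entry, averaged 64.0 ± 25.6 CPM in neuronal corn oil nuclei, against 9.27 ± 4.65 CPM in non-neuronal ones (2.48 ± 0.53, adjusted p = 0.0037). Under agonist Gm10545 averaged 24.4 ± 6.73 CPM in neuronal nuclei, against 3.30 ± 6.60 CPM in non-neuronal ones, without overlap (1.97 ± 1.60, adjusted p = 0.493). Gm10544 averaged 55.5 ± 33.1 CPM in neuronal agonist nuclei, against 10.7 ± 4.94 CPM in non-neuronal ones, with overlap (1.57 ± 0.86, adjusted p = 0.272). Neither was called under agonist. Since the strand setting is not given in the sources used here, reads of a gene and its antisense partner cannot be told apart with certainty. These 2 genes are no members and were named after their values were seen.

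No clustered protocadherin passed the test for a change with agonist. In neuronal nuclei 0 of 58 members were called, 55 having been tested, as was true of 0 of all 14182 genes tested (0%). Alpha sums averaged 491.6 ± 55.6 CPM with agonist and 476.8 ± 34.3 CPM with corn oil, beta sums 455 ± 45.8 and 431 ± 72.5 CPM, and gamma sums 867 ± 202 and 710.3 ± 43.3 CPM (SD, n = 4 each), each overlapping. The median log2 fold change was 0.09 for alpha, 0.02 for beta, 0.43 for gamma and 0.08 over all genes. At an unadjusted p under 0.05 there were 6 members, beside 5.02% of all genes tested: Pcdhga2, Pcdhgc4, Pcdhb22, Pcdhga8 and Pcdha7 with positive and Pcdhga9 with negative log2 fold changes, all at an adjusted p of 0.901. DESeq2 also called 0 members. Pcdha8 and Pcdhga9 lay wholly lower with agonist, beside 2.63% of all genes tested, and no member wholly higher, beside 1.09%.

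Library 1 of the neuronal agonist group weighed on several of them. Pcdhga2 had 155, 3.34, 17.6 and 17.7 CPM in neuronal agonist libraries against 4.02, 5.78, 3.98 and 13.0 CPM in neuronal corn oil libraries (log2 fold change 3.23 ± 1.04), and library 1 stood far above the rest. Pcdhgc4 had 151, 32.4, 35.8 and 39.1 CPM against 18.1, 22.5, 36.6 and 24.7 CPM (1.62 ± 0.61). Pcdha7 had 76.0, 37.0, 18.2 and 37.8 CPM against 11.7, 24.9, 22.7 and 18.8 CPM (1.33 ± 0.55). Its highest value was again library 1, and the groups overlapped for all 3 genes. For the other C-type genes the log2 fold change was 0.71 ± 0.70 for Pcdhac1, 0.10 ± 0.31 for Pcdhac2, 0.43 ± 0.42 for Pcdhgc3 and 0.91 ± 0.56 for Pcdhgc5. Summed, the 3 gamma C-type genes had 240.4, 117, 97.0 and 97.3 CPM in neuronal agonist libraries against 65.7, 72.4, 88.0 and 82.5 CPM in neuronal corn oil libraries. The sums did not overlap, with library 1 far above the rest, and have no test. Library 1 also had the fewest genes with a count of all 16 libraries, 17293.

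In non-neuronal nuclei 0 of 58 members were called, 34 having been tested, against 2 of 14846 genes tested (0.0135%). Only 1 alpha gene had counts enough to be tested. The sum was 47.0 ± 46.2 CPM with agonist and 27.0 ± 18.02 CPM with corn oil for alpha, 205 ± 123 and 152 ± 57.0 CPM for beta, and 549.5 ± 294 and 530.5 ± 245 CPM for gamma (SD, n = 4 each), all overlapping. Without the 2 agonist libraries over 30% mitochondrial the log2 ratio was 1.68 in place of 0.80 for alpha, 0.96 in place of 0.44 for beta and 0.53 in place of 0.05 for gamma. The remaining agonist libraries, at 77.2 and 95.6 CPM for alpha and 218 and 371 CPM for beta, then lay above all 4 corn oil libraries, and these sums have no test. The median log2 fold change was 0.65 for 12 beta and 0.70 for 21 gamma genes, against 0.13 over all genes tested. With library size in place of TMM the median over all genes became -0.27, so the direction of small changes here depends on scaling. A single member, Pcdhgb7, had an unadjusted p under 0.05 (log2 fold change 1.56 ± 0.70, adjusted p = 0.954), beside 4.82% of all genes tested. By DESeq2 0 members were called. Pcdhgc4 did not overlap, at 3.47, 4.50, 10.8 and 10.5 CPM with agonist against 18.7, 36.0, 21.1 and 26.6 CPM with corn oil, and was not called (-1.50 ± 0.84, adjusted p = 0.954). It was the 1 member wholly lower with agonist (3.69% of all genes tested), and 0 were wholly higher (0.397%).

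**Figure D5:**
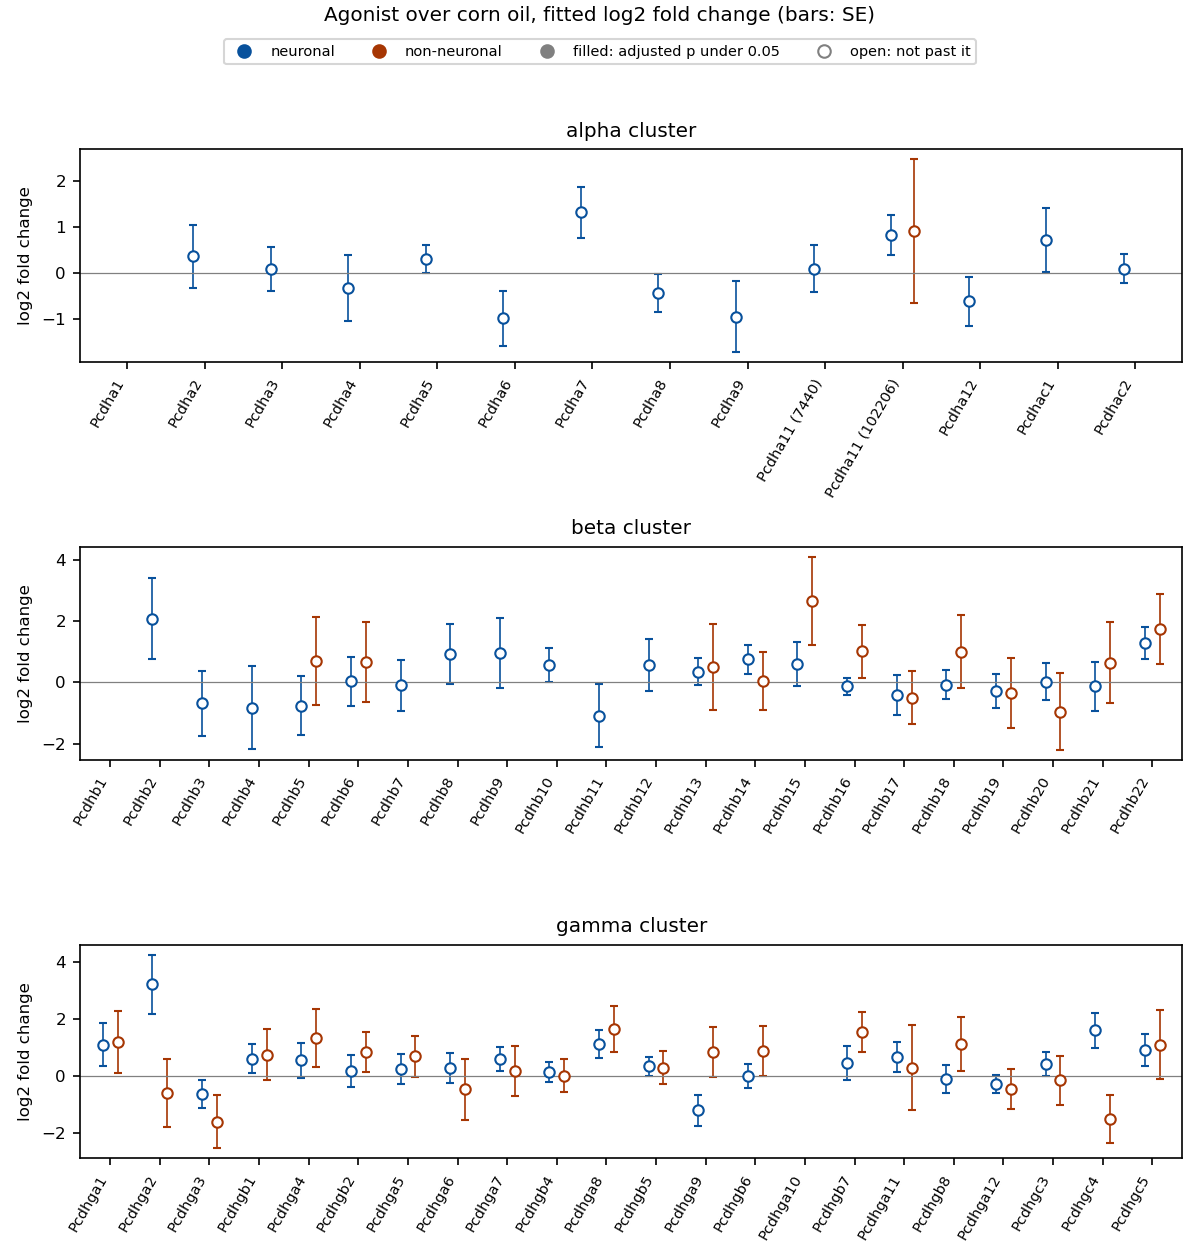
Fitted log2 fold change of agonist over corn oil for each tested member in chromosome order, with its SE (blue, neuronal; brown, non-neuronal). No point is filled: no member passed an adjusted p of 0.05 in either population, and in the alpha cluster 1 gene could be tested in non-neuronal nuclei.

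Whether the agonist response differed between populations was tested as an interaction over all 16 libraries. No member was called of 55 tested, as for 0 of 18566 genes (0%), and 9 members had an unadjusted p under 0.05, beside 7.99% of all genes tested. The lowest adjusted p was 0.288, for Pcdha6 (log2 difference of responses -9.26 ± 2.27). That value came from the 0 counts in non-neuronal corn oil libraries beside 4.86 and 36.9 CPM in 2 non-neuronal agonist libraries. Pcdha6 was called by DESeq2 (adjusted p = 0.0121), without a count filter (0.000624) and without the libraries over 30% mitochondrial (0.0308). Pcdhgc4 had a difference of 3.14 ± 0.93 (adjusted p = 0.413), with an adjusted p of 0.0471 by DESeq2.

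Other genes of the family and its pathway were compared from lists. Of 12 protocadherins outside the clusters, 3 of 9 tested were higher in neuronal nuclei under agonist (6.67% of all genes tested) and 2 of 10 tested under corn oil (11.8%), and none lower (6.97% and 13.5%). Nothing particular to the list is read from these counts. Pcdh15, a cadherin of hair-cell tip links, averaged 815 ± 207 CPM in neuronal nuclei, against 28.3 ± 27.6 CPM in non-neuronal agonist nuclei (log2 fold change 4.38 ± 0.61, adjusted p = 0.000338), and 810.5 ± 68.0 against 48.0 ± 23.3 CPM under corn oil (3.82 ± 0.32, adjusted p = 6.24e-06). Pcdh9, a delta protocadherin, averaged 263 ± 110 CPM in neuronal nuclei, against 15.97 ± 25.9 CPM in non-neuronal agonist nuclei (3.5 ± 0.90, adjusted p = 0.0172), and 211 ± 21.8 against 24.2 ± 6.14 CPM under corn oil (2.85 ± 0.28, adjusted p = 1.69e-05). Pcdh1 passed under agonist (2.04 ± 0.62, adjusted p = 0.0398).

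Of 20 regulators of promoter choice and chromatin, 2 were higher and 3 lower in neuronal nuclei under corn oil, all 20 being tested, and 0 higher and 1 lower of 19 tested under agonist. These shares lay near or below those over all genes tested (11.8% higher and 13.5% lower under corn oil, 6.67% and 6.97% under agonist). Ctcf, the factor bound at protocadherin promoters, averaged 35.2 ± 6.77 CPM in neuronal nuclei, against 39.0 ± 12.6 CPM in non-neuronal corn oil nuclei and was not called (-0.48 ± 0.42, adjusted p = 0.453). Among cohesin genes under corn oil, Rad21, a core subunit, and Wapl, the release factor, were lower in neuronal nuclei. The log2 differences were 1.03 ± 0.32 and 0.85 ± 0.23 (adjusted p = 0.0274 and 0.0134), while Pds5b was higher there by 0.92 ± 0.22 (adjusted p = 0.0069). Dnmt3a, a DNA methyltransferase, averaged 306 ± 107 CPM in neuronal nuclei, against 94.9 ± 51.1 CPM in non-neuronal corn oil nuclei (1.49 ± 0.37, adjusted p = 0.0095). Rest, a repressor of neuronal genes, was lower in neuronal corn oil nuclei by 1.80 ± 0.54 (adjusted p = 0.0256). None of Rad21, Wapl, Pds5b, Dnmt3a and Rest was called under agonist. Summed counts there, neuronal against non-neuronal, were 536 against 392 for Rad21 and 476 against 470 for Rest. Those of Wapl, Pds5b and Dnmt3a kept the corn oil direction. Pds5a was the gene lower under agonist (-1.13 ± 0.35, adjusted p = 0.043).

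Of 21 intracellular partners and processing enzymes, each of them tested, neuronal nuclei had 3 higher and 4 lower under corn oil, and 2 higher and 3 lower under agonist. These are counts of a few genes beside the same shares over all genes, and nothing particular to the list is read from them. Cyfip2, a subunit of the WAVE complex that drives actin branching, averaged 221 ± 58.8 CPM in neuronal nuclei, against 30.6 ± 27.0 CPM in non-neuronal agonist nuclei (2.30 ± 0.59, adjusted p = 0.016), and 118 ± 12.4 against 20.7 ± 4.71 CPM under corn oil (2.26 ± 0.31, adjusted p = 0.000173). Nlgn1, a postsynaptic adhesion protein, was higher under both (1.75 ± 0.56 and 2.44 ± 0.62, adjusted p = 0.049 and 0.0108). Ptk2b (Pyk2), a kinase that binds protocadherin tails, was lower in neuronal than non-neuronal nuclei, by 4.79 ± 1.13 under agonist and by 1.98 ± 0.55 under corn oil (adjusted p = 0.0107 and 0.0179). Prkca was lower in neuronal nuclei by 1.77 ± 0.53 and by 1.13 ± 0.25 in the same order (adjusted p = 0.037 and 0.0049). In the comparisons of agonist with corn oil, and in the interaction, none of the tested genes among these 53 was called.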

How the data were processed

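The authors deposited expected counts per Ensembl gene for 16 libraries of sorted nuclei. Per the submitters' processing notes, RSEM 1.3.0, STAR 2.5.2, DESeq2 1.10.1 and the mouse build GRCm38 were used, and per the labels' protocols libraries came from Ovation RNA-Seq System V2 cDNA sheared to 200 bp, with 7 cycles of PCR, and reads were 75 bp single-end. Annotation release and strandedness: not given in the sources used here. Symbols, exons and positions came from GENCODE M21 (51633 identifiers matched, 279 not). The column headers name a project on AhR knockout mice, whereas the labels give agonist or corn oil. The labels were followed.

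Expected counts were rounded. Levels are CPM by library size, per kb of merged exons where genes are compared. Each comparison was fitted over all genes with edgeR 4.0.16 (R 4.3.3): TMM scaling, filterByExpr (minimum count 10, minimum total 15), robust quasi-likelihood F-tests, Benjamini-Hochberg adjusted p under 0.05. Comparisons of 2 groups used their 8 libraries, the interaction all 16. An SE is the size of the log2 fold change divided by the square root of F. The scripts were tested on simulated data. Cluster sums carry no test. No replicates were duplicates (chi-square per degree of freedom at least 8.78).

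The members, lists and comparisons were chosen with earlier results of these data known. Named were the 5 C-type genes, up to 6 called members per cluster and comparison by lowest adjusted p, the 3 highest members per cluster in neuronal corn oil nuclei, Pcdha6, Pcdha7 and Pcdha11, and up to 4 genes per list. Pcdha12, Pcdhga2 and Pcdhgb7 are given with values outside this rule. The count of single-gene calls under alternatives and the check for outlying libraries did not cover them. Alternatives were RLE and library-size scaling, no filter, DESeq2 1.42.0, leaving out each library, a replicate block, leaving out mitochondrially encoded genes or libraries over 30% mitochondrial, and 1 fit of all groups.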

Additional observations from a re-analysis of the deposited data

Results flagged for a closer look

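In groups of 4 libraries, 14 of 89 sets of values held a library that stood apart by Dixon's criterion. Chance flags about 1 in 20 sets of normally spread values, and whether these values are so spread was not tested. The share flagged over all genes was not computed, so no excess is read from this count. In 4 of the 14 the other 3 libraries held 0 counts, a pattern that meets the criterion whatever the size of the remaining value. Of the 14, 11 were in non-neuronal groups, 2 in neuronal agonist and 1 in neuronal corn oil nuclei.

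Neuronal agonist library 1 was high for Pcdhgc4 at 151.1 CPM (the others at most 39.1) and for Pcdhgc5 at 70.1 CPM (at most 31.9). Neuronal corn oil library 2 was high for Pcdha2 at 28.6 CPM (at most 16.6).

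Among non-neuronal agonist libraries, library 4 was high for Pcdhgc3 at 69.4 CPM (at most 12.4) and for Pcdha6 at 36.9 CPM (at most 4.86). Library 3 was high for Pcdha9 at 46.9 CPM (at most 2.65). Library 1 held the only counts of Pcdha2, at 0.204 CPM.

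Among non-neuronal corn oil libraries, library 2 was high for Pcdhac2 at 8.26 CPM (at most 0.774) and for Pcdhb10 at 4.50 CPM (at most 0.318), and held the only counts of Pcdhac1, at 3.38 CPM. Library 1 was high for Pcdhb15 at 8.57 CPM (at most 0.751) and held the only counts of Pcdha7, at 0.953 CPM. Library 3 held the only counts of Pcdha2, at 1.81 CPM, and the lowest beta sum, 67.1 CPM against at least 173 CPM.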

How the results depend on the processing

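The direction of the member calls between populations held under every alternative run: 0 members were called lower. Under corn oil 11 members were called higher, 10 to 16 under scaling, filter, DESeq2 and mitochondrial-gene alternatives, 9 to 14 without 1 library, and 7 in 1 fit of all groups. Under agonist 8 were called, 8 to 12 under the like alternatives, 7 to 10 without 1 library, 9 without the libraries over 30% mitochondrial and 13 in 1 fit of all groups. The fit without a count filter called 1 member (Pcdhga2) higher with agonist in neuronal nuclei. For the interaction, DESeq2 called 1 member higher (Pcdhgc4) and 1 lower (Pcdha6), and the fits without a filter and without the libraries over 30% mitochondrial called 1 lower (Pcdha6). The cause was not tested. Over all genes DESeq2 called more: 1679 higher and 2686 lower between populations under agonist, 2412 higher and 4288 lower under corn oil, 24 with agonist in neuronal and 140 in non-neuronal nuclei, and 150 in the interaction. Without a filter 142 genes were higher and 10 lower with agonist in neuronal nuclei, against 0 with the filter.

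Correlations of deviations ran from -0.108 to 0.166 between same-numbered libraries and from -0.128 to 0.141 between others, over all pairs of groups compared. Between the populations within a treatment, same-numbered pairs ran from -0.009 to 0.070 and other pairs from -0.051 to 0.045. Whether the numbers pair libraries of the same mice cannot be told from values this small, and the main fits used no pairing. With the replicate block 14 members were called higher under corn oil, 10 under agonist, and 0 in the other comparisons.

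Of the calls of single named genes, 253 of 277 values under alternatives stayed past the threshold, and none reversed. Without 1 library the log2 ratio of the summed levels between populations ranged under corn oil from 3.77 to 4.55 (alpha), 1.26 to 1.64 (beta) and 0.23 to 0.75 (gamma), and under agonist from 3.01 to 4.00, 0.89 to 1.60 and 0.41 to 1.03. In non-neuronal nuclei 13 alpha genes had too few counts to be tested for the agonist.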

Other observations

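Pcdhga10 had 0 counts in every library, and its whole variable exon of 2613 bp lies opposite Gm26672 in the annotation. Gm26672 averaged 122 ± 28.3 CPM in neuronal agonist, 137 ± 17.7 CPM in neuronal corn oil, 81.5 ± 56.2 CPM in non-neuronal agonist and 85.8 ± 66.8 CPM in non-neuronal corn oil nuclei (SD, n = 4 each). It was not called in any comparison. Whether reads of Pcdhga10 were counted for Gm26672 was not tested.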
